A study of Mus musculus with 192 samples.

Results

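Hsd17b11 was followed across every combination of 7 microbial ligands in mouse dendritic cells. It is 1 of 23481 genes in the count table and 1 of the 4720 that held enough counts to be tested. The gene was chosen by its own values over the groups described here: no ligand given alone raised it, while some combinations did. Its levels, folds and log2 differences are therefore given as a description, with standard errors and without p-values.

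Hsd17b11 encodes a 17-beta-hydroxysteroid dehydrogenase of the short-chain dehydrogenase/reductase family. The enzyme oxidises the 17-beta-hydroxyl group of steroids such as androgen metabolites, and the protein sits in the endoplasmic reticulum membrane and on the surface of lipid droplets, the organelles that store neutral lipid. In liver the gene is known as a target of the nuclear receptor PPAR-alpha. Its closest relative, Hsd17b13, is a lipid droplet protein of hepatocytes encoded next to it.

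The cells were bone marrow-derived dendritic cells from female C57BL/6J mice of 6 to 8 weeks, grown with the growth factor GM-CSF, which all groups including the controls share. RNA was taken after 6 hours with ligand and sequenced as UMI counts, in which a UMI (unique molecular identifier) marks 1 original cDNA molecule. The libraries form 64 groups of 3: Ctrl without ligand, 7 single ligands, all 21 pairs and all 35 triplets. The ligands are named as in the labels: PAM, LPS (lipopolysaccharide, sensed by TLR4), HMW, Zymosan (labelled as zymosan depleted), SeV, cGAMP (labelled 3',3'-cGAMP, a cyclic dinucleotide of the kind sensed by STING) and CpGB. The labels give no doses, and nothing in them says that replicates came from separate cultures or mice, so p-values measure only the spread between these samples. Levels are in CPM (counts-per-million) after scaling of the libraries with TMM factors, given as mean ± SD over 3 libraries. In bulk RNA, fewer cells of a type and less RNA per cell cannot be told apart.

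Library totals ran from 46564 to 610234 UMIs with a median of 171616, and the Ctrl libraries held 61823 to 89530. Of the dendritic cell markers all 8 had UMIs, with Itgax, H2-Ab1, Cd74, Ccr7, Cd86 and Ccl22 abundant, while Flt3 and Zbtb46 held 95 and 99 UMIs over all libraries. Transcripts of T and NK cells, B cells, mast cells and red cells were at or near 0. Over the 500 genes that varied most between groups, Hsd17b11 not among them, 7 libraries stood apart from their own group and correlated better with another. They were library 1 of PAM + LPS, HMW + SeV + cGAMP, HMW + SeV + CpGB, HMW + cGAMP + CpGB and Zymosan + SeV + cGAMP, and library 3 of PAM + HMW + SeV and of LPS + SeV + CpGB. The last of these was nearest to LPS + HMW + SeV (mean r of 0.709, against 0.476 for the nearer library of its own group). Library 1 of HMW + SeV + CpGB was nearest to cGAMP + CpGB (0.724), and that of HMW + cGAMP + CpGB to SeV + CpGB (0.715). Library 1 of HMW + SeV + cGAMP was nearest to Zymosan + cGAMP (0.834), and that of Zymosan + SeV + cGAMP to HMW + cGAMP (0.869). Library 3 of PAM + LPS + cGAMP was not among the 7 standing apart. It was nearer to another group, LPS + cGAMP + CpGB (0.782 against 0.744), as were 30 others of the 185 libraries not standing apart. It is left out in some values because of its level of Hsd17b11, so that choice depended on the gene's own values. Levels of groups that hold these libraries, and differences on adding a ligand, are also given without them where they moved.

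In the mm10 (GRCm38) assembly the GENCODE M21 annotation places Hsd17b11 on chromosome 5 from 103989762 to 104021919, on the minus strand. It lists a transcript of 7 exons with 894 coding bases and a shorter one of 5 exons with 696. The count table gives 1 value per symbol and does not separate them. The nearest tested gene on the other side of the start is Nudt9, an ADP-ribose hydrolase transcribed away from Hsd17b11. Its earliest GENCODE start is 24387 bases off, at 104046306, and the RefSeq gene table begins it at 104045538. The stretch upstream of the start of Hsd17b11 is shown because the levels that follow are those of this gene. It comes from RefSeq's promoter window (GRCm38.p6) of 250 bases before to 50 after the RefSeq start and stops where the first GENCODE transcript begins: chr5:104021920-104022046, minus strand. Capitals would mark a match to the letters searched below, of which it holds none.
Hsd17b11: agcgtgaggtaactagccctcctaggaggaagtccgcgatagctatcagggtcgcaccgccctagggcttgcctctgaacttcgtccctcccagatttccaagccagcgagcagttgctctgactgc

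Both strands of the whole window were searched for 8 sets of letters, and no match overlapped another. The Hsd17b11 window held an IRF match (AANNGAAA, found in 23.9% of all 32851 windows) 54 to 47 bases before the RefSeq start and a C/EBP match (TTGCNNAA, 10.8%) 28 to 21 bases before it, both outside the printed stretch. Within the printed 127 bases of Hsd17b11 there was no match. NF-kB letters (GGNNTTTCC, 5.82% of windows), AP-1 (TGANTCA, 7.81%), CRE (TGACGTCA, 1.79%), STAT (TTCNNNGAA, 8.3%), the nuclear receptor element AGGTCA (16.3%) and the E-box (CACGTG, 7.15%) were not in that window. A match is a description of the letters and shows no binding.

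Each ligand given by itself was first compared with Ctrl. Hsd17b11 stood at 374, 611.1 and 432.1 CPM in the 3 Ctrl libraries (27, 49 and 45 UMIs), a mean of 472.4 ± 124. With cGAMP the libraries were at 724.4, 403.2 and 558.5 CPM, the highest mean of the single ligands (562 ± 161), and with SeV at 439.6, 536.5 and 562.8 (513 ± 64.9). Both ranges overlapped Ctrl. HMW (471.6 ± 38.1 CPM), LPS (427.6 ± 40.8), CpGB (350.3 ± 64.4) and Zymosan (344.4 ± 81.9) overlapped it as well. LPS libraries were at 409.4, 399 and 474.3 CPM and CpGB libraries at 320.2, 306.3 and 424.2, so neither ligand of the pair that follows lay above Ctrl. PAM was the exception on the low side, with 177.1, 246.3 and 222.2 CPM, all under the lowest Ctrl library. Its log2 difference from Ctrl was -1.12 (SE 0.25).

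A group was counted as raised when its mean was at least 2 times that of the group it was compared with and none of its libraries overlapped. By that count 0 of 7 single ligands were raised over Ctrl. The same comparison called 11.2% of gene and ligand combinations over all tested genes. Among pairs, 1 of 21 was raised over both of its single ligands, which was LPS + CpGB; over all genes 0.757% of gene and pair combinations were. Since the gene was chosen on these contrasts, nothing is read from either share.

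LPS and CpGB together gave 1403, 1831 and 1462 CPM (175, 323 and 311 UMIs; 1566 ± 232), 3.31-fold over Ctrl. Every library of the pair lay far above every LPS, CpGB and Ctrl library. The pair exceeded LPS, the higher of its single ligands, by 1.86 on the log2 scale (SE 0.18), and it exceeded the sum of both single-ligand log2 effects by 2.27 (SE 0.30). The next pairs in order of that excess over the higher single ligand were LPS + Zymosan (0.59, SE 0.19), Zymosan + CpGB (0.57, SE 0.20), cGAMP + CpGB (0.42, SE 0.19) and PAM + LPS (0.41, SE 0.19). LPS + Zymosan and PAM + LPS also lay above both of their ligands in every library, at 1.51-fold and 1.36-fold. In libraries thinned to equal totals their excess was 0.21 and 0.05. That of cGAMP + CpGB was 0.06 without replicate 2 of every group and 0.75 without replicate 1. The other 16 pairs ranged from 0.12 (LPS + cGAMP) down to -1.03 (PAM + HMW), so most pairs stood near or below the higher of their ligands.

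**Figure D1:**
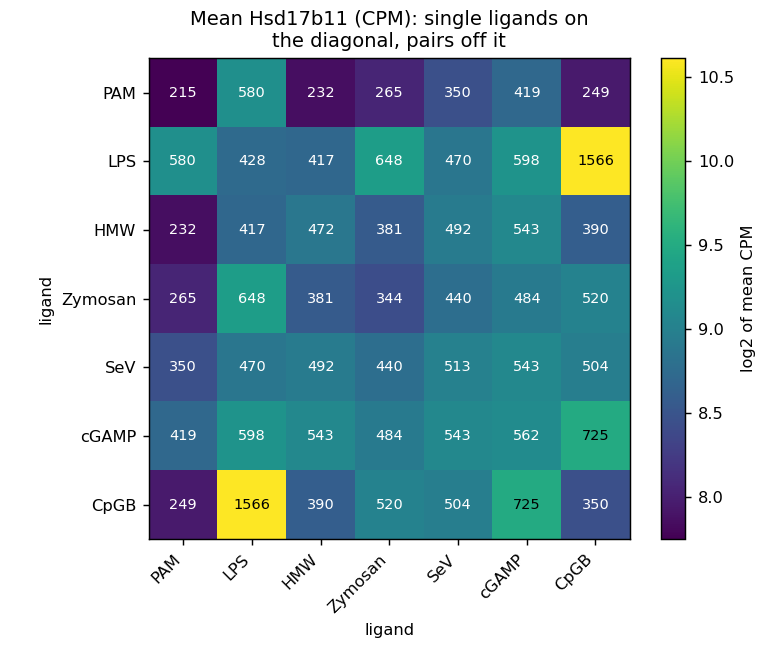
Mean Hsd17b11 (CPM of 3 libraries) for each single ligand on the diagonal and each pair off it, with the same ligands on both axes; colour is the log2 of the mean. LPS + CpGB, at 1566 CPM, is the one cell far above its row and column, and the PAM row holds the lowest means.

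Of all 56 combinations, 6 were raised over Ctrl, against 16.9% of gene and combination pairs over all tested genes, a share from which nothing is read for the reason given. They were LPS + CpGB, the triplets of LPS and CpGB with PAM, HMW, Zymosan or cGAMP, and Zymosan + cGAMP + CpGB. At the edge of the count, Zymosan + cGAMP + CpGB (825.7, 1082 and 1146 CPM) was just inside at 2.15-fold. SeV + cGAMP + CpGB (826.3, 805.5 and 899 CPM) was just outside at 1.79-fold. LPS + SeV + CpGB, at 2.47-fold, was kept out by the overlap of 1 library with Ctrl, described below. PAM + LPS + cGAMP, at 1.83-fold, failed on its mean and overlapped Ctrl in 1 library, and its mean rests on another. With library size alone 3 combinations were raised, and without replicate 2 of every group 10 were. A pattern of this kind, 6 or more combinations raised over Ctrl and no single ligand raised, was met by 209 of the 4720 tested genes, Hsd17b11 included.

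All 6 groups that contain LPS and CpGB headed the order of means. LPS + cGAMP + CpGB was highest, at 1999, 2044 and 2010 CPM (2017 ± 23.3), 4.27-fold over Ctrl. LPS + HMW + CpGB followed LPS + CpGB at 1547, 1568 and 1434 CPM (1516 ± 72.1). LPS + Zymosan + CpGB stood at 1136, 1112 and 1331 CPM (1193 ± 120) and PAM + LPS + CpGB at 1239, 1163 and 1058 (1153 ± 91.1). These libraries all lay above every Ctrl and single-ligand library. In LPS + SeV + CpGB, libraries 1 and 2 were at 1474 and 1525 CPM, while library 3, one of those standing apart, was at 500.6. With it the mean was 1167 ± 577 and the group overlapped Ctrl; without it the mean of the 2 others was 1500 ± 36.2, or 3.17-fold over Ctrl.

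Only 1 triplet of LPS and CpGB lay above all of its pairs in every library. LPS + cGAMP + CpGB exceeded LPS + CpGB by 0.36 on the log2 scale (SE 0.15), or 1.29-fold. Adding HMW to LPS + CpGB made a log2 difference of -0.05 (SE 0.15), adding Zymosan -0.39 (SE 0.16) and adding PAM -0.45 (SE 0.16). Adding SeV made one of -0.43 (SE 0.16), which on mean log2 CPM was -0.05 without the libraries that stood apart. The Zymosan and PAM triplets lay below LPS + CpGB in every library. No triplet of the 35 was raised by 2-fold over all 3 of its pairs, where 0.0708% of gene and triplet combinations were over all genes. Outside the groups with LPS and CpGB, Zymosan + SeV + CpGB was the other triplet above its 3 pairs in every library, at 605.8 ± 9.69 CPM. It was 1.17-fold over Zymosan + CpGB (log2 difference 0.20, SE 0.20). Its lowest library was at 598.4 CPM, and the highest of Zymosan + CpGB was at 596.2. Lying above all pairs in every library was not counted over all genes, so nothing is read from these triplets.

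**Figure D2:**
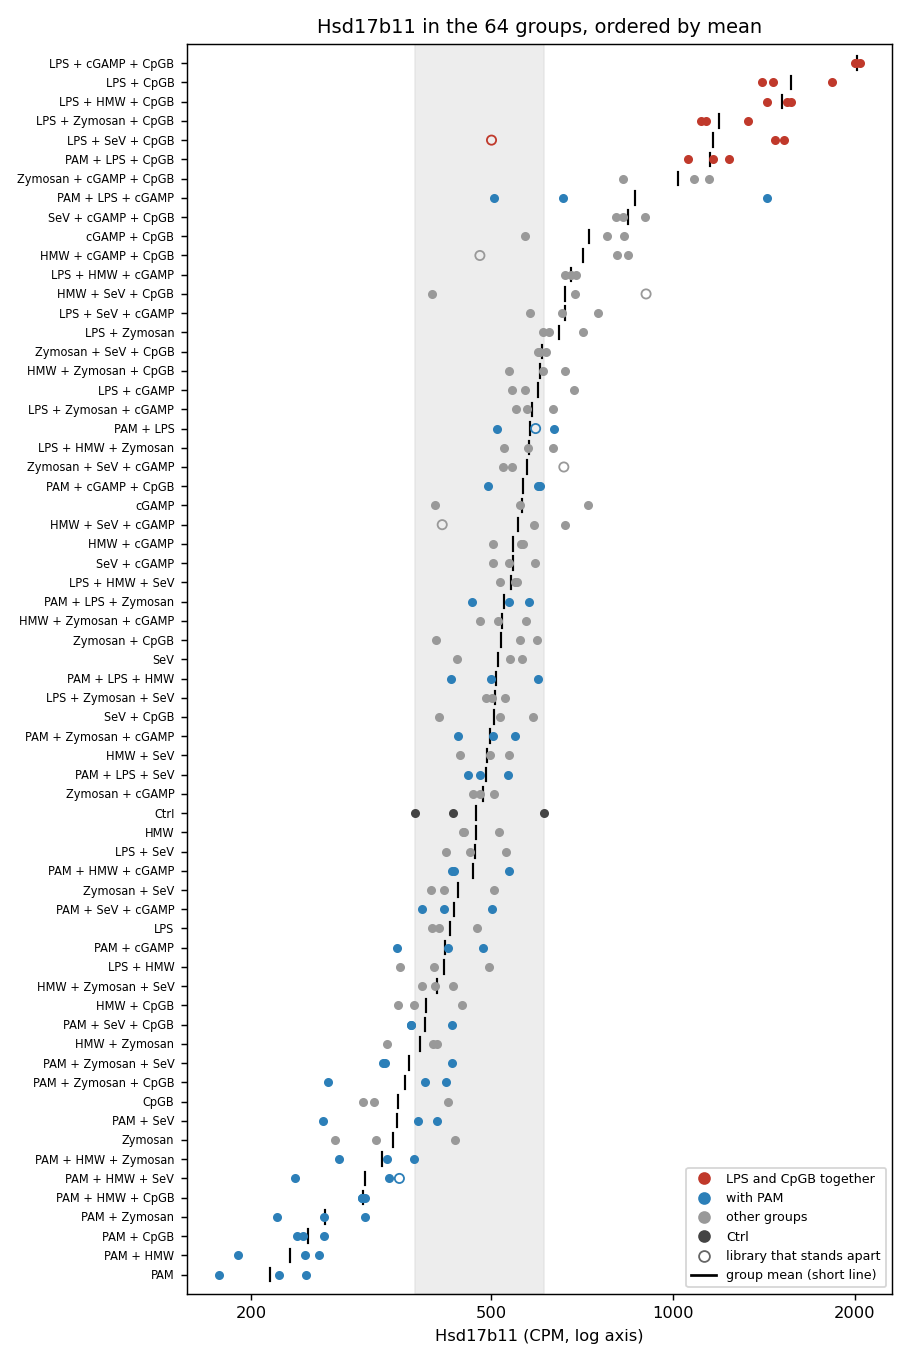
Hsd17b11 in every library (points, CPM on a log axis) by group, ordered by group mean (short lines); the grey band is the range of the 3 Ctrl libraries. The 6 groups with LPS and CpGB (red) are at the top from 1153 to 2017 CPM, one open red point at 500.6 CPM is library 3 of LPS + SeV + CpGB, and groups with PAM (blue) fill the low end.

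Neighbours in this order mostly could not be separated: 61 of the 63 adjacent pairs of groups overlapped. The exceptions were LPS + cGAMP + CpGB over LPS + CpGB and LPS + HMW + CpGB over LPS + Zymosan + CpGB. The 58 groups without both LPS and CpGB had means of 215.2 to 1018 CPM with a median of 500.9, close to Ctrl. The 16 groups with LPS but not CpGB had a median of 558.2 CPM, the 16 with CpGB but not LPS 542.6, and the 26 with neither 453. Without the libraries that stood apart these were 556.1, 531.8 and 453 CPM.

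In those 58 groups 3 libraries lay at or above 1058 CPM, the lowest library of the LPS and CpGB groups apart from the 500.6. Libraries 2 and 3 of Zymosan + cGAMP + CpGB did so at 1082 and 1146 CPM, and the highest was library 3 of PAM + LPS + cGAMP. It held 1432 CPM (229 UMIs), against 505.5 and 657.6 in the other libraries of its group. This is the library whose wider profile was nearest to LPS + cGAMP + CpGB, as given above. The group's mean of 865.1 ± 497 CPM rests on it. Of the other libraries of the group, the first lay within the range of Ctrl and the second just above its highest library (611.1 CPM).

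At the low end, 7 groups lay below Ctrl in every library, and all 7 contained PAM. Over all genes, 17.8% of gene and group combinations lay wholly below Ctrl. They were PAM (215.2 ± 35.1 CPM) and its combinations with HMW (231.8 ± 36.6), CpGB (249 ± 13.3), Zymosan (265 ± 44.1), HMW and CpGB (306.7 ± 1.76), HMW and SeV (309.1 ± 63.2) and HMW and Zymosan (329.6 ± 46.3). None of them contained LPS or cGAMP. Without the library that stood apart, PAM + HMW + SeV was at 287.5 ± 72.1 CPM. The 16 groups with PAM but not LPS had a median of 354.6 CPM, against 520.2 CPM for the 26 groups with neither.

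Because all pairs and triplets were measured, each ligand could be added to 22 backgrounds of at most 2 other ligands, Ctrl included. These comparisons share groups and are not independent of one another. LPS made the largest median log2 difference, 0.76 (range -0.15 to 2.20), and all its libraries lay above the background in 14 of 22 cases. Over all genes 15% of such cases did. cGAMP followed with a median of 0.48 (-0.15 to 1.18) and 15 of 22 cases (14.4% over all genes). CpGB had a median of 0.44 (-0.41 to 1.86) and 11 of 22 cases (10.1% over all genes). PAM had a negative median, -0.36 (-1.12 to 0.56), and lay wholly below the background in 9 of 22 cases (9.4% over all genes). The medians of SeV (0.18), Zymosan (0.10) and HMW (0.07) were near 0. The lead of LPS was not firm. Without the libraries that stood apart and library 3 of PAM + LPS + cGAMP, its median on mean log2 CPM was 0.54. That of CpGB was then 0.52.

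CpGB made a larger difference where LPS was present. In the 6 backgrounds with LPS it was 0.89 to 1.86 with a median of 1.53, and in the 16 without LPS -0.41 to 1.08 with a median of 0.42. The highest values were those for LPS alone (1.86, SE 0.18), LPS + HMW (1.85, SE 0.17) and LPS + cGAMP (1.76, SE 0.17). Seen from the other side, LPS made a median difference of 1.70 (1.18 to 2.20) in the 6 backgrounds with CpGB and of 0.31 (-0.15 to 1.40) in the 16 without. Adding LPS to PAM gave the 1.40 (SE 0.22), from 215.2 to 579.5 CPM, a level that overlapped Ctrl.

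cGAMP also made a larger difference beside CpGB than without it, though a smaller one than CpGB made beside LPS. Its median was 0.91 (0.36 to 1.18) in the 6 backgrounds with CpGB, in all of which its libraries lay wholly above. In the 16 without CpGB the median was 0.47 (-0.15 to 1.04). From CpGB to cGAMP + CpGB the mean went from 350.3 to 725.3 CPM (1.04, SE 0.20), and from PAM + CpGB to PAM + cGAMP + CpGB from 249 to 565.4 (1.18, SE 0.23). The 5 groups with cGAMP and CpGB but not LPS had a median of 725.3 CPM, against 389.8 CPM for the 11 groups with CpGB and neither LPS nor cGAMP. Without the libraries that stood apart the median for cGAMP + CpGB groups without LPS was 824.5 CPM.

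The differences on adding a ligand were also taken from mean log2 CPM, so that libraries could be left out while the filter and scaling of all libraries were kept. With all libraries the median for CpGB was 0.44 and without those that stood apart 0.52, with 13 in place of 11 cases wholly above. In the backgrounds with LPS it went from 1.44 to 1.70, with 6 of 6 in place of 5 wholly above, and in those without LPS from 0.39 to 0.41. For cGAMP the median stayed at 0.48 with 16 in place of 15 cases, and beside CpGB it went from 0.88 to 0.99. For LPS it stayed at 0.74 with 15 in place of 14 cases, and was 0.54 when library 3 of PAM + LPS + cGAMP was left out as well. The PAM cases wholly below the background stayed at 9.

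**Figure D3:**
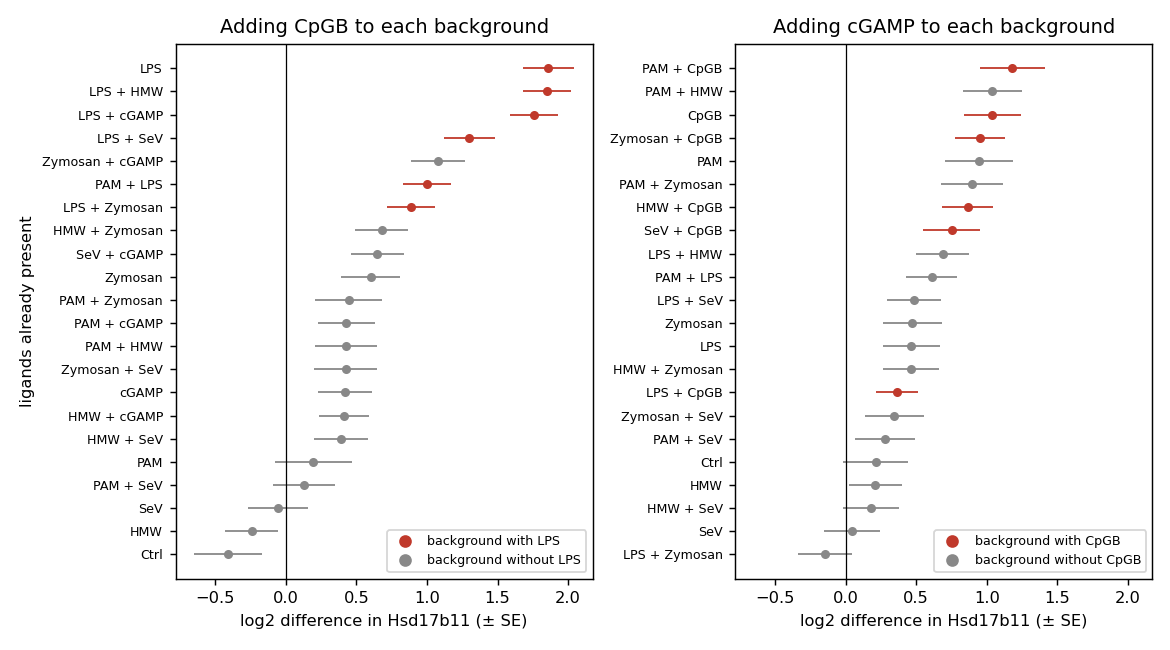
Log2 difference in Hsd17b11 (± SE) on adding CpGB (left) or cGAMP (right) to each of 22 backgrounds, sorted by size. For CpGB the backgrounds with LPS (red) lie at 0.89 to 1.86, above all but 1 of those without it; for cGAMP the backgrounds with CpGB (red) lie at 0.36 to 1.18.

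The dendritic cell marker sum was 4720 to 5410 CPM in the LPS and CpGB groups, against 3460 to 5410 over all 64 groups. The median of all groups was 4730 CPM, and Ctrl was at 3610. Members of the sum did not move together. From Ctrl to LPS + CpGB, Ccl22 went from 172 to 1390 CPM, Ccr7 from 228 to 631 and Cd86 from 41.3 to 198. Itgax went from 490 to 291 CPM and H2-Ab1 from 1780 to 1660, and Cd74 was at 901 and 913. The sum of the macrophage and monocyte markers, of which 6 of 7 had UMIs and Adgre1 was not used here, was low in the LPS and CpGB groups. It was 1630 to 2060 CPM there, against 1630 to 4270 over all groups. Over the 64 group means that sum and Hsd17b11 had a Pearson r of -0.85. The marker sum is dominated by Csf1r (2000 CPM in Ctrl, 407 in LPS + CpGB) and Cd14 (422 and 843). The neutrophil markers summed to 714 to 827 CPM in the LPS and CpGB groups and 550 to 955 over all groups. The part of these cell types in the level of Hsd17b11 was not tested.

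The genes whose group means most resembled those of Hsd17b11 were named by Pearson's r over the 64 groups, on log2 CPM, among the 4500 genes whose mean reached 20 CPM. The median r of those genes was -0.04. The 8 highest were Mrpl13 (0.868), a mitochondrial ribosomal protein; Anxa1 (0.861), annexin A1, a phospholipid-binding protein that dampens inflammation; Htra4 (0.78), a secreted serine protease; and Etv3 (0.764), an ETS-family repressor, followed by Fcgr4 (0.747), Nudt9 (0.716), Rftn1 (0.707) and B4galt5 (0.701). Groups share ligands, so these values describe likeness and carry no p. Over the 58 groups without LPS and CpGB together, r was 0.615 to 0.766 for these 8 genes, which were chosen over all 64 groups, those 58 included. The list depends on the measure: among the 8 highest, 3 of these genes were found again in libraries thinned to equal totals, 5 by Spearman's rho and 2 by the excess of pairs over their higher single ligand.

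Among these 8 genes Anxa1 had the highest likeness in the excess of pairs over their higher single ligand (r of 0.856 over 21 pairs). Its libraries were at 1579, 1746 and 1786 CPM in Ctrl, 1213, 1452 and 1356 with LPS, and 1514, 1573 and 1803 with CpGB. With LPS + CpGB they were at 4258, 4462 and 3864 CPM. As for Hsd17b11, no single library of LPS or CpGB exceeded the highest Ctrl library by much, and the pair lay far above all of them. In LPS + SeV + CpGB, Anxa1 was at 4004, 3787 and 1279 CPM, and in PAM + LPS + cGAMP at 1629, 1494 and 3421. The same 2 libraries were thus out of step for Anxa1 as for Hsd17b11.

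Mrpl13 was at 76.5 ± 19.7 CPM in Ctrl, 26.4 ± 1.33 with PAM and 168 ± 42.9 with LPS + CpGB, its highest group. It rests on few counts (19 UMIs in Ctrl and 83 in LPS + CpGB). Htra4 differed from Hsd17b11 in that single ligands already lay above Ctrl: 33.2 ± 19.5 CPM in Ctrl, 152 ± 28.4 with LPS, 104 ± 30.8 with CpGB and 599 ± 87.1 with both. Etv3 was at 136 ± 30.3, 141 ± 55.7, 164 ± 20.8 and 383 ± 71 CPM in the same order, so of these 4 only the pair stood out. SeV alone (305.8, 214.6 and 370.5 CPM) and cGAMP alone (247.6, 309.7 and 263.9) also lay above the highest Ctrl library of Etv3 (166.2), unlike Hsd17b11. Fcgr4, an activating Fc receptor for IgG, was at 125 ± 13.1 CPM in Ctrl, 47.7 ± 13.9 with PAM and 432 ± 35.4 with LPS + CpGB. Its single ligands differed from those of Hsd17b11: Fcgr4 was at 394 ± 31.8 CPM with cGAMP, 263 ± 35.5 with SeV, 242 ± 74.9 with CpGB and 212 ± 29 with LPS, all above Ctrl in every library. Its highest group was cGAMP + CpGB (503.2 CPM), which does not hold LPS. Rftn1, a lipid raft protein, had 61.7 ± 5.93 CPM in Ctrl and 123 ± 14.2 with LPS + CpGB, and B4galt5, a galactosyltransferase that makes lactosylceramide, 238 ± 92.5 and 538 ± 99. B4galt5 was also at 456 ± 91.5 CPM with cGAMP alone.

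At the other end of the ranking were Fam20c (-0.785), a Golgi kinase of secreted proteins, Acsl4 (-0.785), an acyl-CoA synthetase that prefers arachidonate, and Cmklr1 (-0.744), the chemerin receptor. Fam20c was at 764 ± 122 CPM in Ctrl and 357 ± 40 with LPS + CpGB. Acsl4 was highest in PAM + CpGB (273 CPM) and at 96.4 ± 39.1 CPM with LPS + CpGB. Cmklr1 was at 62.7 ± 15.1 CPM with PAM and 9.59 ± 1.67 with LPS + CpGB, the latter from 5 UMIs.

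**Figure D4:**
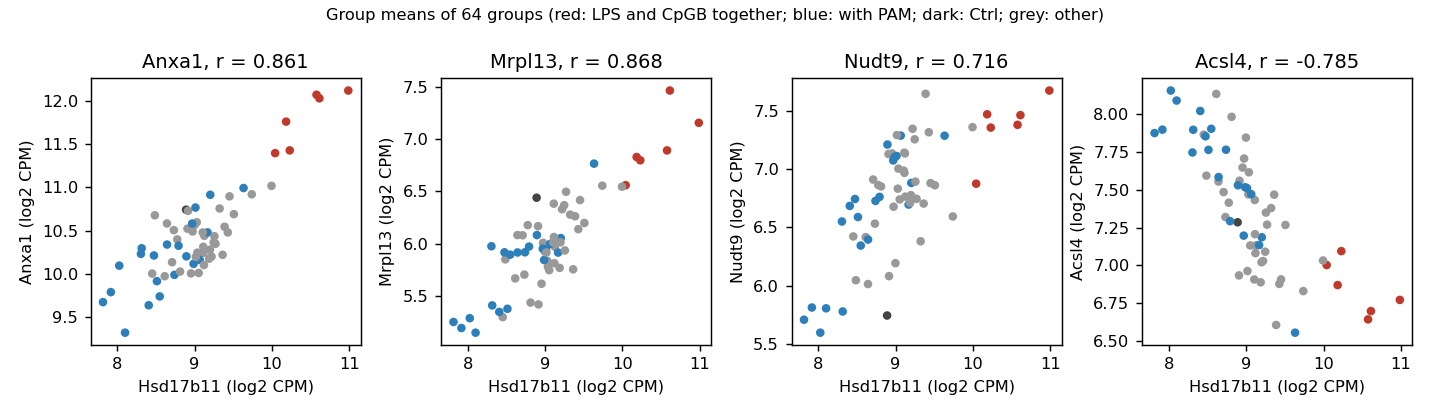
Group means (log2 CPM, prior count 2) of Anxa1, Mrpl13, Nudt9 and Acsl4 against those of Hsd17b11, 1 point per group. Groups with LPS and CpGB (red) are at the upper right for Anxa1, Mrpl13 and Nudt9 and at the lower right for Acsl4, and the r values are 0.861, 0.868, 0.716 and -0.785.

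To place the gene among its relatives and its surroundings, 5 gene lists were tested in LPS + CpGB, LPS and CpGB against Ctrl with edgeR's quasi-likelihood test and Benjamini-Hochberg adjustment over the 4720 genes. A gene was called when its adjusted p was below 0.05 and its log2 fold change reached 1 in either direction. In LPS + CpGB 16.5% of genes were called higher and 12.1% lower, which became 12.2% and 20.5% with library size alone in place of TMM factors. With LPS the shares were 14.6% and 9.6%, and with CpGB 10.8% and 6.27%.

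Of 12 listed symbols of 17-beta-hydroxysteroid dehydrogenases, 11 were in the count table and 2 held enough counts to be tested. Neither was called with LPS, CpGB or both. Hsd17b4, a peroxisomal enzyme of fatty acid oxidation, was at 82 ± 31.7 CPM in Ctrl and 42.6 ± 11.9 with LPS + CpGB (log2 fold change -0.92, SE 0.52, adjusted p = 0.169 by edgeR). Hsd17b12, which elongates long-chain fatty acids, was at 71.4 ± 23.8 and 97.5 ± 31.7 CPM (0.42, SE 0.42, adjusted p = 0.478 by edgeR). Over the 64 groups their r with Hsd17b11 was -0.07 and -0.40, and over the excess of 21 pairs 0.45 and -0.29. Hsd17b10, Hsd17b7 and H2-Ke6 had UMIs but too few to be tested. The adjacent relative Hsd17b13 had 3 UMIs over all libraries. With library size alone as the scaling, Hsd17b4 was called lower (-1.29, adjusted p = 0.0393 by edgeR).

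Among lipid droplet and lipid-handling genes, falls outnumbered rises. Of 50 listed symbols, 47 were in the count table and 24 were tested. With LPS + CpGB 2 were called higher and 9 lower, and the median log2 fold change was -0.75 against -0.09 for all genes. With LPS alone the calls were 2 higher and 7 lower, and with CpGB alone 2 and 6. The rises were both acyl-CoA synthetases: Acsl1 went from 134 ± 58.2 to 1400 ± 34.1 CPM (3.31, SE 0.21, adjusted p = 7.01e-36 by edgeR) and Acsl5 from 85.6 ± 35.5 to 170 ± 17.8 (1.00, SE 0.34, adjusted p = 0.0142 by edgeR). Acsl1 was as high with LPS alone (1510 ± 190 CPM), unlike Hsd17b11. Acsl5 was not called with RLE factors (0.85), library size alone (0.64), thinning (0.65) or DESeq2 (0.85), nor without Ctrl library 1 (0.86, adjusted p = 0.0692 by edgeR) or 3 (0.99, adjusted p = 0.0583 by edgeR). With library size alone the list held 1 rise and 12 falls; falls numbered 5 without Ctrl library 2 or without LPS + CpGB library 3, and 4 without replicate 1 of every group.

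The largest falls of the list were those of Fabp4 and Nceh1. Fabp4, a fatty acid-binding protein, fell from 520 ± 61.5 to 74.3 ± 18.8 CPM (log2 fold change -2.77, adjusted p = 3.16e-18 by edgeR). Nceh1, which splits cholesterol esters, went from 154 ± 58.9 to 21.8 ± 2.72 (-2.76, adjusted p = 2.33e-07 by edgeR), Soat1, which forms them, from 284 ± 84.7 to 65.5 ± 12.2 (-2.11) and the lysosomal lipase Lipa from 1410 ± 78.6 to 452 ± 33.7 (-1.62). The droplet coat genes Plin2 and Plin3 and the triglyceride lipase Pnpla2 with its coactivator Abhd5 fell too, with log2 fold changes of -1.04, -1.32, -1.21 and -1.38; these 4, and Fabp5 below, fall outside the rule for named genes and were chosen after their values were seen. The ninth was Fabp5 (-1.08). The macrophage marker sum was also lower in LPS + CpGB (1830 CPM) than in Ctrl (3230 CPM), and its part in these falls was not tested.

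Of 43 short-chain dehydrogenases and retinoid enzymes, 5 were tested, with 1 called higher and 2 lower in LPS + CpGB. Dhrs3, a retinal reductase, fell from 386 ± 91.2 CPM in Ctrl to 44.2 ± 5.23 with LPS, 105 ± 52.7 with CpGB and 11.6 ± 11.8 with both (-4.78, SE 0.45, adjusted p = 5.33e-20 by edgeR). Cbr3, a carbonyl reductase, fell from 66.4 ± 38.9 to 11.5 ± 10.9 CPM (-2.59, adjusted p = 0.0034 by edgeR). Aldh1a2, which makes retinoic acid, was called higher (adjusted p = 0.0427 by edgeR) on 1 UMI in Ctrl and 15 in LPS + CpGB, a ratio of 6.06 with an exact 95% interval of 0.932 to 255 that covers counting error only. With LPS alone it was at 63.3 ± 7.65 CPM, above the 30 ± 11.8 of the pair. The call of Aldh1a2 was lost with RLE factors, library size alone, DESeq2 (adjusted p = 0.0965) or no filter on low counts, and without library 1 or 2 of Ctrl (adjusted p = 0.121 and 0.132 by edgeR) or library 1 or 3 of LPS + CpGB (0.0787 and 0.0816). That of Cbr3 was lost without Ctrl library 1 (-2.02, adjusted p = 0.0808 by edgeR).

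Of 35 genes of steroid metabolism and nuclear receptors, 9 were tested, with 1 called higher and 1 lower in LPS + CpGB; both were named after their values were seen. Stard3, a cholesterol transfer protein of late endosomes, rose from 85 ± 35.8 to 227 ± 40.9 CPM (1.31, SE 0.30, adjusted p = 0.000167 by edgeR). Por, the electron donor of microsomal cytochromes P450, fell from 98 ± 11.9 to 18.9 ± 13.2 CPM (-2.42, SE 0.56, adjusted p = 0.000158 by edgeR). Stard3 was at 245 ± 26.4 CPM with LPS alone and 206 ± 20.2 with CpGB alone. With library size alone the list held 0 rises and 3 falls. In libraries thinned to equal totals it held 0 falls, so Por was not called there. Ppara, which encodes the receptor that induces the gene in liver, had 1 UMI over all libraries and was not tested.

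**Figure D5:**
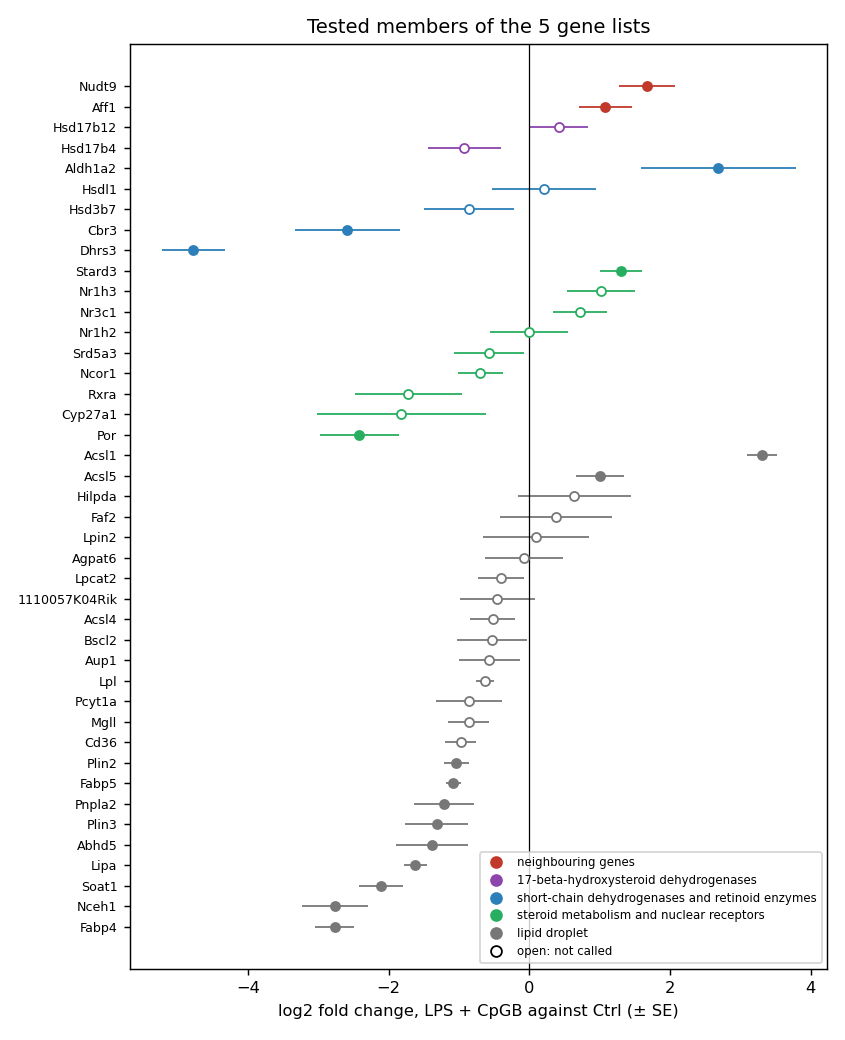
Log2 fold change (± SE) in LPS + CpGB against Ctrl of the tested members of the 5 gene lists, coloured by list; filled points were called and open points were not. Both neighbouring genes lie above 1, neither tested 17-beta-hydroxysteroid dehydrogenase was called, and 9 of 24 lipid droplet genes were called lower.

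Of the 5 nearest genes on each side of Hsd17b11, 2 were tested and both were called higher in LPS + CpGB. Nudt9 was at 13.9, 74.8 and 57.6 CPM in Ctrl and 193, 153 and 150 with LPS + CpGB, so the groups did not overlap (1.67, SE 0.40, adjusted p = 0.000271 by edgeR). It was at 108 ± 37.1 CPM with LPS and 59.2 ± 31.7 with CpGB, neither called against Ctrl (adjusted p = 0.059 and 0.65 by edgeR). Aff1, a subunit of the super elongation complex, went from 64 ± 14.2 to 128 ± 37.4 CPM (1.08, SE 0.38, adjusted p = 0.0168 by edgeR). The call of Aff1 was lost with RLE factors (0.93), library size alone (0.72), thinning (0.69) or DESeq2 (0.93), and without Ctrl library 3 (0.96, adjusted p = 0.0954 by edgeR) or LPS + CpGB library 3 (0.89, adjusted p = 0.108 by edgeR). Over the 64 groups Nudt9 ranked 6 of 4500 in likeness to Hsd17b11 and Aff1 593 (r of 0.37). Of the other 8 neighbours, Klhl8 had 82 UMIs and Sparcl1 and Gm17660 none over all libraries.

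No member of the 5 lists was called above both single ligands in LPS + CpGB, a test that 0.53% of the 4720 genes (25) passed. Nudt9 came closest among the neighbours, 0.65 above LPS on the log2 scale (adjusted p = 0.512 by edgeR), and was called in libraries thinned to equal totals (2.07, adjusted p = 0.03 by edgeR). Of the 3 reference genes of the ligands' response, Il6 passed: it was at 126 ± 48.6 CPM in Ctrl, 1270 ± 156 with LPS, 1160 ± 137 with CpGB and 3000 ± 21.6 with both (1.24 above LPS, adjusted p = 1.9e-13 by edgeR). Tnf (0.21 above CpGB) and Cxcl10 (0.10 above LPS) did not. Il6 differed from Hsd17b11 in being high with each ligand alone, and its r with Hsd17b11 over the 64 groups was 0.224.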

How the data were processed

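RNA of 3 libraries in each of 64 groups was read by the authors as UMI counts per gene symbol; the deposited values are whole-number counts without normalization. The submitters' processing notes name BWA 0.7.15 and the build mm10; the annotation and the rule for collapsing UMIs are not given in the sources used here. Groups were taken from the ligand labels, and 0 columns of per-sample values were left unused. No 2 libraries of a group held identical counts.

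The tests ran in edgeR 4.0.16 (R 4.3.3): filterByExpr by group (4720 of 23481 genes, 95.7% of UMIs), TMM factors, and 1 quasi-likelihood fit over all 64 groups with 128 residual degrees of freedom. Library totals of 46564 to 610234 UMIs limit the precision of weakly expressed genes. Standard errors come from that fit. Likeness used group means of log2 CPM with a prior count of 2. Libraries were compared over 500 variable genes; one stood apart when its higher r with its own group was at least 0.15 under the r between the other members and another group was nearer. The code was tested on simulated data.

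The gene, the lists and the rules were chosen with earlier results of these data known. The rule names Hsd17b11, the tested relatives and neighbours, the 8 genes with the highest and 3 with the lowest r, the called lipid droplet and short-chain dehydrogenase genes with the 4 largest rises and falls in LPS + CpGB, any list member above both single ligands, and Tnf, Il6 and Cxcl10. Gene positions are from GENCODE M21 (GRCm38) and sequences from RefSeq (GRCm38.p6), both on the build of the counts. Alternatives were RLE factors, library size alone, thinning, no filter, each replicate left out, other folds, DESeq2 1.42.0, a replicate block, fewer groups in the fit and other likeness measures.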

Additional observations from a re-analysis of the deposited data

Results flagged for a closer look

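For 4 ligands the log2 difference in Hsd17b11 had one sign in every library with one background and the opposite sign in every library with another. PAM added to LPS gave 0.41 (427.6 to 579.5 CPM), and PAM added to Ctrl gave -1.12 (472.4 to 215.2). Zymosan added to HMW + CpGB gave 0.61 (389.8 to 601.6 CPM), and added to LPS + CpGB it gave -0.39 (1566 to 1193). SeV added to PAM gave 0.71 (215.2 to 349.6 CPM), and added to LPS + Zymosan it gave -0.36 (647.7 to 506.4). CpGB added to LPS gave 1.86 (427.6 to 1566 CPM), and added to HMW it gave -0.24 (471.6 to 389.8). These are the most distant of the backgrounds without overlap for each ligand, and the differences between them were not tested. All 8 kept their sign and their separation without the libraries that stood apart. On mean log2 CPM they also kept their sign without each replicate number, but CpGB added to HMW went from -0.272 to -0.0657 without replicate 1 and PAM added to LPS from 0.427 to 0.264 without replicate 2. In libraries thinned to equal totals, PAM added to LPS was 0.0469 and CpGB added to HMW -0.599. With library size alone PAM added to LPS was 0.258.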

How the results depend on the processing

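Over all alternatives, 977 of the values for single genes or single pairs were classed as unchanged. For a pair this meant a shift smaller than the SD between its libraries. For a fold change against Ctrl it meant the same sign and call, and for likeness the same sign. For an excess over the higher single ligand it meant the same call. A pair or an uncalled excess could thus change sign and count as unchanged. A further 34 pair values moved by more, and some changed sign, as LPS + cGAMP did (0.121 to -0.23 without replicate 2). Of the calls 27 were lost and 2 gained, and 1 uncalled fold change reversed. Of the counts and main values, 430 were classed as unchanged and 67 as moved, and none as reversed. No single ligand raised Hsd17b11 over Ctrl, LPS + CpGB was raised over both of its ligands, and no triplet was raised over its 3 pairs under any alternative tried for them. In LPS + CpGB against Ctrl the median of all genes shifted by -0.0269 on the log2 scale with TMM factors, -0.15 with RLE factors and -0.319 with library size alone; relative to it Hsd17b11 stood at 1.75, 1.72 and 1.69. The same values for PAM were -1.14, -1.17 and -1.18. With RLE factors the rises were 1 of the lipid droplet list, 0 of the short-chain dehydrogenases and 1 neighbour, and the steroid list held 2 falls. With library size alone, 3 of 56 combinations were raised over Ctrl, the median for adding LPS, taken from means of log2 CPM, was 0.562 (0.739 with TMM factors), and 1 of the 17-beta-hydroxysteroid dehydrogenases fell. The rises were then 1 of the lipid droplet list, 0 of the short-chain dehydrogenases, 0 of the steroid list, beside 3 falls, and 1 neighbour. In libraries thinned to equal totals (1 random draw), the excess of LPS + CpGB was 1.4, adding LPS gave 0.541, 3 of the 8 most alike genes were found again, Hsd17b12 reversed to -0.318, and 1 neighbour, Nudt9, was called above both ligands. The rises were 1 of the lipid droplet list, 0 of the short-chain dehydrogenases, beside 1 fall, and 1 neighbour, and the steroid list held 0 falls. Without a filter on low counts the lipid droplet list held 5 falls and the short-chain dehydrogenases 0 rises. With DESeq2 the rises were 1, 0 and 1 in the lipid droplet list, the short-chain dehydrogenases and the neighbours. Raised by 1.5-fold counted 2 pairs over both ligands, and by 3-fold 3 combinations over Ctrl. Of the 8 alike genes 5 were found again by Spearman's rho and 2 by the excess of the 21 pairs. The cause of these changes was not tested. Leaving out libraries in turn gave 5 to 10 combinations raised over Ctrl, medians of 0.494 to 0.782 for adding LPS, 0.465 to 0.693 for cGAMP and 0.425 to 0.639 for CpGB, and 6 to 7 of the alike genes. Rises ranged from 1 to 2 in the lipid droplet list, 0 to 1 in the short-chain dehydrogenases, 1 to 2 in the steroid list and 1 to 2 among the neighbours. Falls ranged from 4 to 9 in the lipid droplet list, 1 to 2 in the short-chain dehydrogenases and 0 to 1 in the 17-beta-hydroxysteroid dehydrogenases, where the 1 was Hsd17b10, named after its values were seen and tested only when the smallest group held 2 libraries. That list also held 1 fall, the same gene, in 2 alternatives added after the data were seen: without the 7 libraries that stood apart, and without those and library 3 of PAM + LPS + cGAMP, where adding LPS gave 0.52 after filtering and scaling anew (0.54 with the scaling of all libraries). Among Ctrl, LPS, CpGB and LPS + CpGB the replicate numbers did not pair libraries: deviations of same-numbered libraries correlated at -0.0231 to 0.0721. With the replicate block the excess of LPS + CpGB was 1.86 and the counts of 9 falls and 2 rises in the lipid droplet list stood. A fit of only the 4 groups Ctrl, LPS, CpGB and LPS + CpGB changed no count by over 1.5 times. The depth of Ctrl, 61823 to 89530 UMIs per library, limits calls of weakly expressed genes.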

Other observations

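Zymosan made a larger difference to Hsd17b11 beside CpGB than without it: the median log2 difference was 0.52 (-0.39 to 0.61) in 6 backgrounds with CpGB and 0.01 (-0.44 to 0.59) in 16 without. The negative value beside CpGB was that for LPS + CpGB. PAM had a median of 0.16 (-0.45 to 0.56) in the 6 backgrounds with LPS and of -0.37 (-1.12 to 0.05) in the 16 without. The 0.56 is the difference on adding PAM to LPS + cGAMP and rests on library 3 of PAM + LPS + cGAMP. On mean log2 CPM that difference was 0.39 with the library and -0.0452 without it and the libraries that stood apart, and the median beside LPS went from 0.17 to 0.00791. For Zymosan without CpGB the same measure went from 0.02 to -0.03 without the libraries that stood apart. HMW had the narrowest range of all ligands, from -0.18 to 0.38. Its libraries overlapped the background in 21 of 22 cases, a count not set beside all genes and from which nothing is read. The 0.38, for SeV + CpGB, rests on library 1 of HMW + SeV + CpGB: on mean log2 CPM without the libraries that stood apart that difference was 0.07 and the range -0.27 to 0.31.

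By the pair of ligands present, the median of the group means was 1354.5 CPM for the 6 groups holding LPS and CpGB. It was 784.45 CPM for cGAMP with CpGB, 669.5 CPM for LPS with cGAMP and 319.35 CPM for PAM with HMW, the lowest. Without the libraries that stood apart and library 3 of PAM + LPS + cGAMP these medians were 1508, 834, 630 and 318.2 CPM. The groups of these pairs overlap, since a triplet holds 3 pairs.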
